A study of Canis lupus familiaris with 26 samples.

Results

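Gene expression was compared between corpora lutea (CL) of dogs given the COX2 inhibitor firocoxib (Previcox) and of control dogs, 30 days after ovulation. The members of this comparison were the 6 of the 26 samples of the series that the labels place on day 30, namely 3 treated samples (replicates 2, 4 and 5) and 3 control samples (replicates 2, 3 and 4). The study had removed a sequenced sample from each of these groups as an outlier, judged by its gene expression. The spread within groups is thus that of the samples kept. Treated bitches had received firocoxib by mouth at 10 mg/kg per day from the day of ovulation, called day 0, until the tissue was taken at ovariohysterectomy. Per the sample labels and the study's methods the controls received a placebo, although the design text of the series calls them untreated. The dogs of both groups were mixed-breed bitches in the study's methods and of various breeds in the design text, differed in age and came into estrus on their own, and the labels give no breed or age for single samples. Each sample was CL tissue freed from the rest of the ovary, from which poly-A selected RNA was sequenced.

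The CL is the gland that forms from the ovulated follicle and secretes progesterone. In the dog it runs a similar course with and without pregnancy, and its second phase depends on prolactin and luteinizing hormone. COX2, encoded by PTGS2, makes prostaglandin H2 from arachidonic acid, and prostaglandin E2 derived from it is known to favor steroid output in the young canine CL. Luteal cells make progesterone from cholesterol, which they take up from lipoproteins or synthesize themselves, and each of them lies close to a capillary.

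Levels below are CPM, the reads of a gene scaled to the library's total reads with edgeR's TMM factors. They are always given in the order of replicates 2, 3 and 4 for controls and 2, 4 and 5 for treated samples. A log2 fold change is that of treated over control, with its standard error (SE). P denotes the unadjusted P-value of edgeR's quasi-likelihood test, and FDR its Benjamini-Hochberg adjusted value over all 13196 genes tested. Between 14851322 and 18473283 reads were counted per sample. Counts of samples of 1 group differed by far more than sampling noise, with a chi-square of 46.6 to 158.6 for each degree of freedom. Control 2 stood apart from the other controls. Its Pearson correlation of log2 CPM was 0.9203 with control 3 and 0.907 with control 4, against 0.973 between controls 3 and 4, and it was 0.934 with treated 2. Correlations within the treated group were between 0.943 and 0.960, and treated 4 had the lower values. Of defining luteal genes, prolactin receptor (PRLR) had 189, 216 and 254 CPM in controls and 205, 253 and 294 CPM in treated samples, and the luteinizing hormone receptor (LHCGR) had 30.8, 29.3 and 56.6 against 59.2, 27.1 and 68.2 CPM. Both receptors overlapped between the groups. STAR, CYP11A1 and HSD3B2 carried no symbol in the sources used here and were not checked.

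With edgeR's test, 0 of 13196 genes passed the study's thresholds for differentially expressed genes (DEGs, 0.01 for P and 0.1 for the FDR), which is 0% of the genes tested, and the smallest FDR was 0.599. The study applied these thresholds with DESeq2 and reported more DEGs on day 30 than edgeR or DESeq2 gave here. An unadjusted P under 0.05 was reached by 1074 genes, or 8.14%, of which 728 (5.52%) were higher and 346 (2.62%) lower in treated samples. This split depended on the scaling. With RLE factors, the scaling of DESeq2, in place of TMM, 519 genes were higher and 512 lower, and the median over all genes of the log2 fold change was -0.03 in place of 0.05. DESeq2 passed 116 genes (0.879%) at both thresholds, 52 of them (0.394%) higher and 64 (0.485%) lower in treated samples. Of these, 101 had a P under 0.01 with edgeR and 104 did not overlap between the groups. In simulated counts with the spread of the day 30 samples, DESeq2 made 69 false calls at both thresholds and edgeR 8. There edgeR found 9% of 2-fold and 83% of 4-fold changes, and DESeq2 27% and 95%. Over all genes tested, 14.6% did not overlap between the groups, with 9.37% higher and 5.25% lower in treated samples. A P under 0.01 along with a log2 fold change of 1 or more in size was found for 133 genes (1.01%), 88 higher (0.667%) and 45 lower (0.341%). That count rested on single samples and ranged from 73 without treated 5 to 417 without control 2, and the count of DESeq2 ranged from 32 to 1378 with the same omissions.

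Gene symbols were available for 4123 of the genes tested, all of them from the study's own lists of DEGs, and 511 of these were on its lists for day 30. Those lists were chosen on the same samples, so the counts given for the gene lists below are not independent evidence of a direction. Among genes with a symbol, 10.2% had a P under 0.05 and were higher in treated samples, and 5.94% were lower. Among the 3612 of them that were not on the study's day 30 lists, these shares were 4.40% and 1.91%, or 6.31% in all.

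Among the genes with the smallest P that were higher in treated samples were TAGAP, RGS1 and FGL2. TAGAP, a GTPase-activating protein of activated T cells, had 7.58, 6.59 and 9.49 CPM in controls and 26.5, 29.3 and 28.5 CPM in treated samples. All 3 treated samples lay close together and above the controls. Its log2 fold change was 1.83 (SE 0.25), and it had the smallest adjusted p with DESeq2 of the genes named here (5.87e-06, higher in 3 of 3 treated samples). RGS1, which dampens chemokine receptor signals in lymphocytes, had 5.61, 7.92 and 5.99 CPM in controls against 23.4, 27.8 and 17.3 CPM in treated samples, a log2 fold change of 1.81 (SE 0.30). FGL2, a fibrinogen-like protein of macrophages and T cells, had 121, 169.9 and 161 against 445, 562 and 289 CPM, and treated 5 was the lowest of its group. T and NK cell markers are given further below and did not reach a P under 0.05.

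The other 7 genes of this direction have various roles. The desmosomal cadherin DSC2 had 4.00, 6.11 and 3.56 CPM in controls and 18.3, 17.8 and 16.9 CPM in treated samples, with a log2 fold change of 1.95 (SE 0.31). The treated samples differed from each other by less than the controls did. OMD, which encodes osteomodulin, a small keratan sulfate proteoglycan of the matrix, had 2.23, 3.02 and 6.23 CPM against 19.6, 16.7 and 27.8 CPM (log2 fold change 2.48, SE 0.44). For the keratin KRT222 the controls had 0.0519, 0.302 and 0.297 CPM and the treated samples 3.21, 2.18 and 1.87 CPM, so the fold rests on few reads in the controls. CRADD, an adaptor with a death domain that recruits caspase-2, had 12.4, 15.97 and 21.8 CPM in controls and 37.6, 52.7 and 51.4 CPM in treated samples. The zinc finger gene ZMAT1 had 6.70, 13.2 and 12.3 against 31.2, 33.8 and 44.3 CPM, the nucleotidase gene NT5C 12.4, 10.4 and 9.67 against 20.6, 34.1 and 30.05 CPM, and the phosphatase gene PTPN20 1.71, 1.45 and 1.36 against 8.39, 4.42 and 5.85 CPM. All 10 genes passed both thresholds with DESeq2, and their log2 fold changes with edgeR ranged from 1.38 to 3.46. They were named for a small P and no overlap between the groups, TAGAP included. DESeq2 used the same counts, so neither its calls nor the lack of overlap is further evidence.

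Among genes that were lower in treated samples, the smallest P belonged to FADS1, the delta-5 desaturase that completes the synthesis of arachidonic acid, the substrate of COX2. It had 464, 668 and 522 CPM in controls and 229.6, 197 and 135 CPM in treated samples, with a log2 fold change of -1.56 (SE 0.27) and an adjusted p with DESeq2 of 9.16e-05 (lower in 3 of 3 treated samples). The highest treated sample, treated 2, had fewer CPM than the lowest control. SLC16A12, a transporter of the monocarboxylate family, had 37.2, 48.6 and 53.97 CPM against 12.6, 20.3 and 14.3 CPM. SLC34A2, a phosphate transporter, was at 2.23, 5.08 and 5.75 CPM in controls and at 0.555, 0.508 and 0.724 CPM in treated samples, all of them under 1 CPM. CDO1, which degrades cysteine, had 320.5, 983 and 667 CPM in controls, where replicate 2 was low, and 212, 227.6 and 174 CPM in treated samples.

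CDH13, which encodes T-cadherin of endothelium and smooth muscle, had 62.9, 70.2 and 90.2 CPM in controls and 21.9, 4.79 and 12.5 CPM in treated samples, a log2 fold change of -2.51 (SE 0.49). Treated 4 was the lowest. RNF213, a ubiquitin ligase linked with human moyamoya angiopathy, had 119, 61.4 and 102 against 45.7, 25.02 and 27.5 CPM. TGM2, the transglutaminase that crosslinks matrix proteins, had 74.2, 68.9 and 38.8 CPM against 23.1, 18.2 and 10.3 CPM. For EHD4, an ATPase of endosomal recycling, the values were 158, 188 and 195 CPM and 92.1, 59.03 and 53.1 CPM. The adhesion molecule NRCAM had 18.7, 37.4 and 35.9 against 10.9, 11.96 and 11.04 CPM, and the G1 cyclin CCND2 had 38.6, 47.9 and 49.4 against 23.9, 18.6 and 24.98 CPM. In each of these 10 genes all treated samples lay under all controls, which the rule for naming them required. All 10 passed both thresholds with DESeq2 on the same counts, which is no further evidence.

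**Figure D1:**
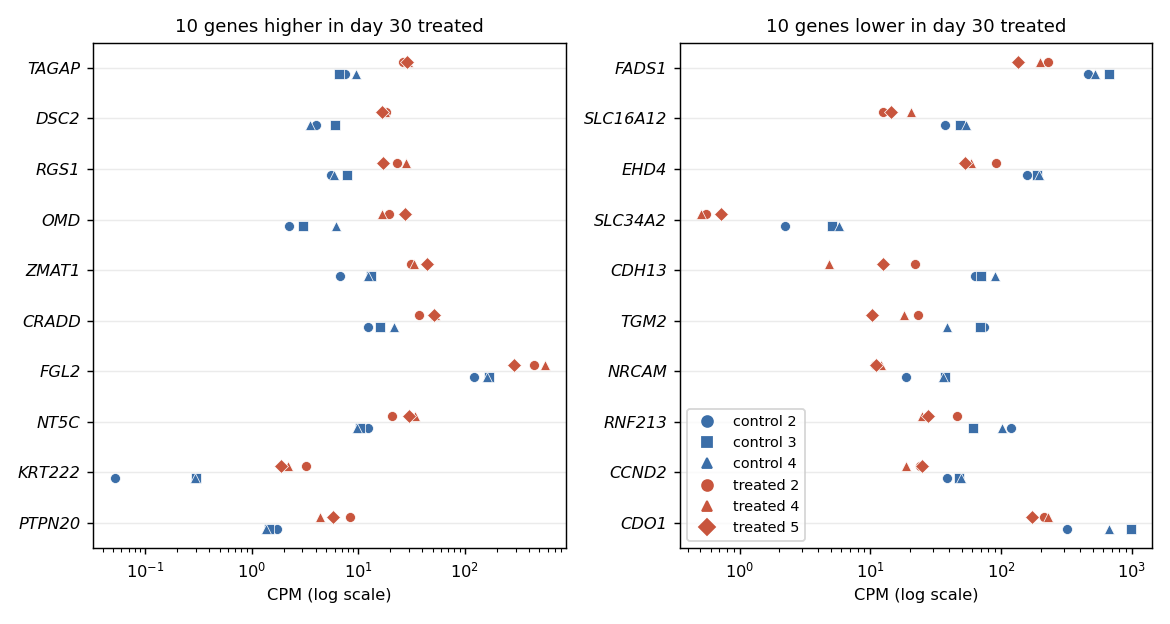
CPM on a log scale (x axis) of the 10 genes with the smallest P in each direction (y axis), 1 point per day 30 sample, with blue for control and red for treated samples and a symbol for each replicate. By the rule for choosing them, treated and control points do not overlap for any gene, and TAGAP has treated values between 26.5 and 29.3 CPM against 6.59 to 9.49 CPM in controls.

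Ranked by size of the fold change, genes with a mean of at least 1 CPM in a group included SYNPR (log2 fold change 5.10, SE 1.27), EYA1 (3.52, SE 0.82), HORMAD2 (3.24, SE 0.94) and ATP6V0A4 (3.14, SE 0.91) among those higher in treated samples. Single libraries carried several of them. SYNPR, a synaptic vesicle protein, had 0.208, 0.181 and 0.178 CPM in controls and 0.741, 1.67 and 17.8 CPM in treated samples, so treated 5 had most of the reads. EYA1, a transcriptional coactivator, had 0.156, 0.181 and 0.178 CPM in controls and 4.07, 0.725 and 1.33 CPM in treated samples, with treated 2 the highest, and HORMAD2, a meiotic chromosome protein, had 0.415, 0.121 and 0.119 against 0.802, 4.71 and 1.03 CPM, with treated 4 the highest. On the lower side, SLC26A3, an anion exchanger, had 0.415, 2.66 and 4.45 CPM in controls and 0.247, 0.218 and 0.121 CPM in treated samples. PLIN4, a lipid droplet protein, had 2.96, 1.45 and 4.03 against 0.679, 0.798 and 0.422 CPM. LRRC32, which holds latent TGF-beta at the cell surface, had 5.87, 2.36 and 1.42 against 0.802, 0.725 and 0.422 CPM.

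Cholesterol synthesis genes had lower levels in treated than in control samples. The list held 21 genes of the mevalonate and sterol steps, of which 11 were tested under a symbol, 8 of these being on the study's day 30 list. All 11 had a log2 fold change under 0, with a median of -1.16 and a range from -1.73 to -0.67. A P under 0.05 was reached by 7 of them, all lower, and by 0 of the 3 that were not on the study's list. The groups did not overlap in 7. Among genes with a symbol 5.94% were lower at that P, and 5.25% of all genes tested were lower without overlap. Neither share is a baseline for genes on the study's list, which were chosen on these samples. With DESeq2, 1 gene, SQLE, passed both thresholds. Over all genes tested the median was 0.05. Leaving out a sample moved the median between -1.71 and -0.89 and the count between 3 without treated 5 and 10 without control 2 or treated 2.

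SQLE, the squalene epoxidase that catalyzes a rate-controlling step, had 432, 886 and 796 CPM in controls and 357, 62 and 218 CPM in treated samples. Its log2 fold change was -1.73 (SE 0.58). Treated 4 was lowest, and control 2 was the control nearest to treated 2. CYP51A1, the lanosterol demethylase, had 241, 632 and 639 against 285, 151 and 175 CPM, so control 2 lay within the range of the treated samples. For FDPS, which makes farnesyl diphosphate, the values were 280.3, 469.8 and 368 against 263, 95.4 and 141 CPM. HSD17B7, which acts in cholesterol synthesis and also converts estrone to estradiol, had 80.3, 75.7 and 68.6 CPM in controls and 43.7, 12.9 and 34.2 CPM in treated samples (log2 fold change -1.30, SE 0.40). Averaged over the 11 genes on the log2 scale, relative to the control mean, levels were -0.27, 0.19 and 0.08 in controls and -0.48, -2.11 and -1.21 in treated samples. Treated 2 thus lay nearer to control 2 than to treated 4.

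Genes of fatty acid synthesis and activation gave a mixed picture. Of 20 genes on the list, 14 were tested, 7 of them on the study's day 30 list. The median log2 fold change was -0.58. A P under 0.05 was reached by 5 genes, all of them lower, and none of these was outside the study's list. In comparison, 5.94% of genes with a symbol were lower at that P, which is no baseline for genes on that list. FADS2, the delta-6 desaturase that acts before FADS1, had 2021, 1467 and 923 CPM in controls and 689, 516 and 317 CPM in treated samples (log2 fold change -1.53, SE 0.38). ACACA, which forms malonyl-CoA, had 139, 165 and 175 against 112, 93.5 and 95.4 CPM, and the acyl-CoA ligase ACSL5 had 26.8, 33.5 and 32.9 against 22.2, 13.3 and 16.7 CPM. ACLY, which supplies acetyl-CoA from citrate, had 1323, 2499 and 2524 CPM in controls and 1457, 357 and 465 CPM in treated samples, so that treated 2 fell within the range of the controls. The carnitine palmitoyltransferases of fatty acid oxidation, CPT1A, CPT1B and CPT2, each overlapped between the groups.

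**Figure D2:**
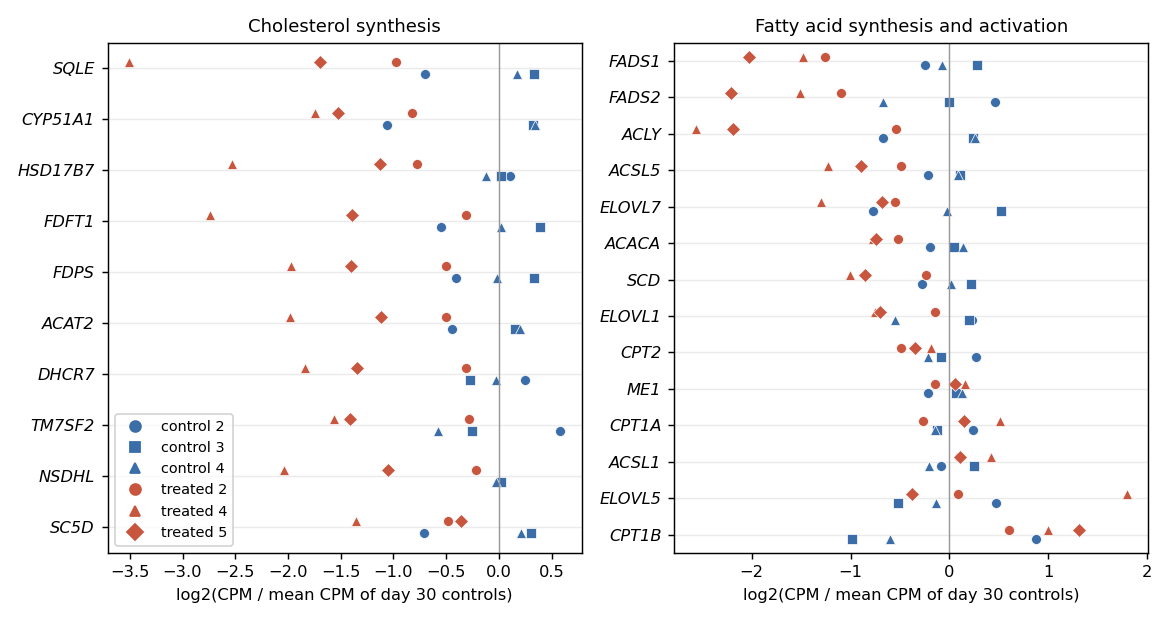
Log2 ratio of each day 30 sample's CPM to the mean CPM of the 3 controls (x axis) for 10 of the 11 cholesterol synthesis genes (left) and the 14 fatty acid genes (right), 1 point per sample, blue for control and red for treated samples. Treated 4 (red triangles) is the lowest sample for most cholesterol synthesis genes, while treated 2 (red circles) lies beside control 2 (blue circles) in several of them.

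Of 22 genes of sterol uptake, storage and control, 8 were tested, 3 of them on the study's day 30 list. At a P under 0.05, 3 were lower and 1 higher (median log2 fold change -0.64). Shares among genes with a symbol were 5.94% lower and 10.2% higher. The 3 lower became 1 without control 4, treated 4 or treated 5, and the 1 higher became 0 without control 2, control 3, treated 4 or treated 5. STARD4, which carries sterols in the cytosol, had 53.3, 89.95 and 104 CPM against 49.2, 18.2 and 25.7 CPM (log2 fold change -1.41, SE 0.41). SOAT1, which esterifies cholesterol for storage, had 82.04, 213 and 161 CPM in controls and 101, 60.7 and 73.5 CPM in treated samples, and treated 2 overlapped with the controls. ABCA1, which exports cholesterol, was the gene with a higher level, at 26.6, 32.7 and 52.2 CPM in controls and 42.03, 103 and 91.3 CPM in treated samples.

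Of 21 genes of steroid hormone synthesis and inactivation, 8 were tested, and 0 of them had a P under 0.05 with edgeR or with DESeq2. Without control 2, 1 was lower at that P. Their log2 fold changes lay between -0.33 and 0.40, and the median was -0.01. Whether the cholesterol and steroid lists differed was not tested. CYP19A1, the aromatase that makes estradiol, had 1466, 1526 and 1567 CPM in controls and 1049, 1555 and 2548 CPM in treated samples, where treated 5 was the highest. Of 18 luteotropic and steroid receptor genes, 12 were tested, with a median of 0.11. INSR, the insulin receptor, was lower in treated samples (33.5, 28.5 and 32.7 against 23.1, 17.2 and 11.8 CPM, log2 fold change -0.86, SE 0.29), and LEPR, the leptin receptor, was higher but at under 1 CPM in all 6 samples (0.0519, 0.121 and 0.0593 against 0.926, 0.218 and 0.724 CPM). Without treated 5, 0 of the 11 genes of this list then tested had a P under 0.05. FSHR, the receptor of follicle-stimulating hormone, had 1382, 1595 and 1327 CPM in controls and 1311, 3186 and 2213 CPM in treated samples, with treated 4 the highest (log2 fold change 0.64, SE 0.33, not under a P of 0.05).

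With all 6 samples, genes of the prostaglandin pathway reached a P under 0.05 no more often than all genes with a symbol (16.2%). PTGS2, the target of firocoxib, had 10.7, 13.7 and 9.02 CPM in controls and 13.02, 10.9 and 3.02 CPM in treated samples (log2 fold change -0.31, SE 0.51), and the groups overlapped. Firocoxib blocks the enzyme and not its transcript, so this level is no check of the treatment. Of 17 genes of prostaglandin synthesis, transport and breakdown, 8 were tested, and 1 had a P under 0.05, or 3 without control 2 and 2 without treated 2. This was SLCO2A1, the transporter that takes prostaglandins into cells for breakdown, with 28.5, 34.2 and 25.4 CPM in controls and 18.3, 6.16 and 7.24 CPM in treated samples (log2 fold change -1.47, SE 0.43), and it passed both thresholds with DESeq2. Treated 2 lay between the controls and the other treated samples. PTGIS, the prostacyclin synthase, had 40.4, 55.2 and 46.5 against 39.4, 38.4 and 24.1 CPM, which did not overlap but missed a P of 0.05. The 5 prostaglandin receptors tested out of 11 overlapped between the groups and had a P over 0.05, with log2 fold changes from -0.55 to 1.58.

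Endothelial markers were lower in treated than in control samples. Of 22 markers, 12 were tested, 10 of them on the study's day 30 list. All 12 had a log2 fold change under 0, with a median of -0.98. A P under 0.05 was found for 8 of them, all lower, and for 0 of the 2 outside the study's list. Among genes with a symbol 5.94% were lower, which is no baseline for genes on that list, chosen on these samples. With DESeq2, 3 markers, namely FLT1, PLVAP and VWF, passed both thresholds, against 97 of the 4123 genes with a symbol and 0.879% of all genes tested. In bulk tissue, fewer cells of a type and less RNA per cell cannot be told apart. Leaving out a sample moved the median between -1.51 without treated 2 and -0.86 without treated 4, and the count between 4 without treated 5 and 9 without control 2 or treated 2.

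VWF, the von Willebrand factor stored in endothelial granules, had 541, 425 and 436 CPM in controls and 317, 134 and 121 CPM in treated samples (log2 fold change -1.29, SE 0.38). FLT1, a receptor of vascular endothelial growth factor (VEGF) that limits its signal, had 75.9, 153 and 158 CPM against 67.02, 32.3 and 62.7 CPM. KDR, the main signaling receptor of VEGF, had 520.3, 836 and 553 against 485, 245 and 237 CPM, and CDH5, the cadherin of endothelial junctions, had 158, 197 and 191 against 143, 61.1 and 57.4 CPM. Both were singled out after their values were seen. In each of these genes treated 2 was nearest to the controls. PECAM1, an adhesion molecule of endothelium and leukocytes, had 152, 207 and 258 against 121, 79.9 and 135 CPM. PLVAP, which builds the diaphragms of capillary pores, had 3.32, 2.84 and 8.36 CPM in controls and 0.926, 0.363 and 1.75 CPM in treated samples (log2 fold change -2.24, SE 0.69). Summed over the 12 markers, levels were 2172, 2699 and 2302 CPM in controls and 1776, 868 and 1022 CPM in treated samples, with no overlap.

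Angiogenic and hypoxia factors were tested for 13 of 28 genes, of which 3 were lower at a P under 0.05 and 0 higher. The share of lower genes among those with a symbol was 5.94%. The 3 became 6 without control 2, and without treated 5 there were 2 lower and 1 higher. NRP1, a coreceptor of VEGF, had 141, 184 and 197 CPM in controls and 106, 86.1 and 90.2 CPM in treated samples (log2 fold change -0.89, SE 0.21). EPAS1, the hypoxia-inducible factor abundant in endothelium, had 163, 175 and 166 against 132, 47.8 and 56.9 CPM, and CAV1, the coat protein of caveolae, had 21.6, 28.1 and 21.2 against 15.2, 11.4 and 12.97 CPM. HIF1A, the widely expressed hypoxia-inducible factor, had 898, 1129.5 and 978 CPM in controls and 1331, 1323 and 1319 CPM in treated samples, with all treated samples above the controls but a P over 0.05. The endothelin receptor EDNRB had 816, 3042 and 1548 CPM in controls and 1409.6, 508 and 627 CPM in treated samples, and overlapped.

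**Figure D3:**
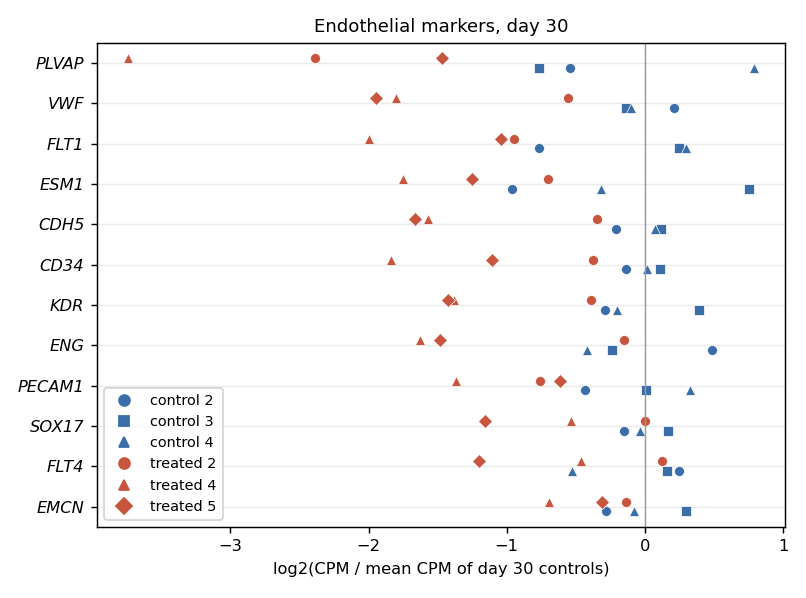
Log2 ratio of each day 30 sample's CPM to the mean CPM of the 3 controls (x axis) for the 12 endothelial markers tested (y axis), 1 point per sample, blue for control and red for treated samples. Treated 4 and treated 5 lie lowest for most markers, and treated 2 lies between them and the controls.

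Markers of other cell types were read in the same way. For mural and smooth muscle markers, 0 of 9 tested had a P under 0.05 (median log2 fold change 0.21, and -0.13 without treated 4). Without control 2, 2 of them were higher and 1 lower at that P. Of 16 fibroblast and matrix genes tested out of 22, 3 were lower and 0 higher at a P under 0.05, namely FN1 (fibronectin, 194.5, 412 and 279 against 179, 101 and 96.7 CPM), CTHRC1 (16.05, 30.5 and 16.8 against 9.63, 9.14 and 11.5 CPM) and LOXL2, a crosslinking enzyme (25.96, 24.02 and 16.9 against 17.4, 7.25 and 9.89 CPM). Without control 3, 1 gene of this list was lower and 1 higher, and 2 were lower without treated 4 or treated 5. With all 6 samples, 5.94% of genes with a symbol were lower at a P under 0.05. The collagens COL1A1, COL1A2 and COL3A1 overlapped between the groups. A P under 0.05 was reached by 0 of 4 macrophage markers, 0 of 4 T and NK cell markers, 0 of 2 granulocyte markers and 0 of 2 surface and oviduct epithelium markers. Summed CPM of the macrophage markers were 89.2, 23.5 and 39.98 in controls and 71.3, 39.1 and 63.6 in treated samples, with control 2 the highest, and those of the T and NK cell markers were 5.92, 4.23 and 4.92 and 8.58, 8.19 and 5.85. B and plasma cell markers had no symbol among the genes tested and were not analysed here. ALAS2, the only erythrocyte gene tested, had 0, 0.302 and 0.0593 CPM in controls and 0.123, 3.63 and 0.0603 CPM in treated samples, and was highest in treated 4.

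Cytosolic ribosomal protein genes were higher in treated than in control samples. Of 79 genes on the list, 55 symbols with 57 identifiers were tested, and 23 of these were on the study's day 30 list. All 57 had a log2 fold change over 0, with a median of 0.69 and a range from 0.39 to 1.31. A P under 0.05 was reached by 38 of the 57, all higher, and by 17 of the 34 that were not on the study's list, against 4.40% of genes with a symbol outside that list. None passed both thresholds with DESeq2. The count moved with single samples and with the scaling. It was 26 with RLE factors, 15 with all 26 samples in the fit, 4 without control 3, 9 without treated 4, 19 without treated 5, 20 without control 4 and 43 without control 2, while the median stayed between 0.54 and 0.74. These genes have many processed copies in mammalian genomes, and reads that match a copy may have been lost or assigned to it.

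RPL23A, a protein of the large subunit, had 185, 185 and 185 CPM in controls, which were almost equal, and 286, 311 and 319 CPM in treated samples (log2 fold change 0.72, SE 0.18). RPL14 had 249.8, 218 and 236 against 361, 379 and 442 CPM, RPL23 had 316, 365 and 379 against 524, 591 and 664 CPM, and RPL31 had 93.3, 98.5 and 105 against 149.5, 155 and 182 CPM. All treated samples were above all controls for 41 of the 57 genes, these 4 among them, where 9.37% of all genes tested were higher without overlap. The mean log2 level of the 57 genes relative to the control mean was 0.33, -0.13 and -0.20 in controls and 0.62, 0.75 and 0.78 in treated samples. Control 2 was thus nearest to the treated samples.

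Translation initiation and elongation factors were tested for 17 of 40 genes, 6 of them on the study's day 30 list. At a P under 0.05, 7 were higher and 1 lower in treated samples (median log2 fold change 0.52), where 10.2% of genes with a symbol were higher and 5.94% lower. The 7 became 2 without control 3, treated 4 or treated 5, 3 without control 4 and 1 with all 26 samples in the fit, and the 1 lower became 0 without control 4. NACA, which guards nascent chains at the ribosome, had 318, 436 and 473 CPM against 709.8, 679 and 896 CPM (log2 fold change 0.90, SE 0.24). EIF3H and EIF3D, subunits of initiation factor 3, had 166, 159.8 and 163 against 225, 282 and 334 CPM and 294, 211 and 231 against 349, 355 and 444 CPM. The gene with the lower level was EIF2AK2, the kinase PKR that halts initiation in response to double-stranded RNA, with 11.3, 8.47 and 15.4 CPM in controls and 5.74, 3.12 and 6.09 CPM in treated samples.

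**Figure D4:**
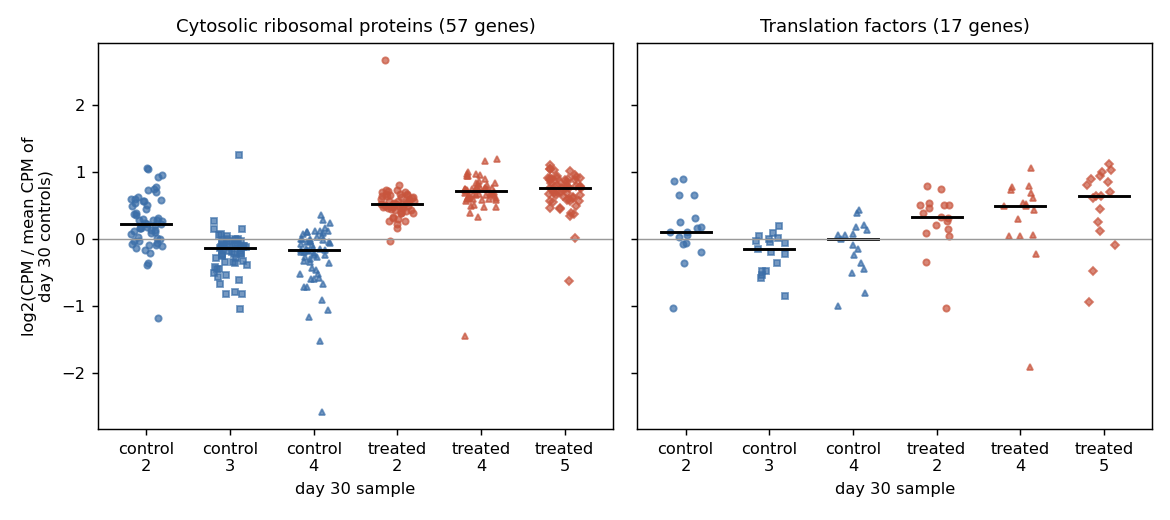
Log2 ratio of CPM to the mean CPM of the 3 controls (y axis) for the 57 cytosolic ribosomal protein genes (left) and the 17 translation factors (right) in each day 30 sample (x axis), 1 point per gene, with the median as a black line. The medians of the 3 treated samples lie above those of the 3 controls in both panels, and control 2 has the highest median of the controls.

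Inflammatory and NF-kB genes varied with single samples. Of 29 genes, 22 were tested, 3 were higher and 3 lower at a P under 0.05, and the median log2 fold change was 0.84. Among genes with a symbol, 10.2% were higher and 5.94% lower at that P. Without treated 4 the median was -0.06 and 0 genes were higher at a P under 0.05, while 8 were higher without treated 5 and 1 without control 4. CCL2, the chemokine for monocytes, had 46.9, 46.6 and 26.6 CPM in controls and 58.1, 447 and 48.3 CPM in treated samples, so treated 4 stood far above the other 5 samples. ICAM1, a leukocyte adhesion molecule, had 31.3, 10.9 and 11.4 against 25.7, 145 and 16.1 CPM, and NFKBIA, the inhibitor of NF-kB that NF-kB itself induces, had 70.8, 51.2 and 50.2 against 57.5, 222 and 64.1 CPM. Treated 4 was highest in both, and both had a P over 0.05.

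The genes lower in treated samples at a P under 0.05 were CASP8, IDO1 and IL1R1. CASP8, the initiator caspase of death receptors, had 6.49, 8.53 and 12.2 CPM in controls and 3.70, 2.83 and 3.44 CPM in treated samples (log2 fold change -1.44, SE 0.37, adjusted p with DESeq2 0.0444). IDO1, which degrades tryptophan, had 12.3, 3.39 and 3.97 CPM against 2.16, 0.145 and 0.965 CPM (log2 fold change -2.56, SE 0.87), and control 2 was the highest. TBK1, a kinase upstream of interferon genes, was higher in treated samples, at 31.1, 65.8 and 67.6 CPM in controls and 89.5, 98.2 and 119.8 CPM in treated samples. Among the candidate genes for RT-qPCR, 16 were tested, and 2 had a P under 0.05, both lower, namely HSD17B7 and IDO1. Of all genes with a symbol, 16.2% had such a P. With control 2 or treated 5 left out, 3 candidates were higher at that P. In the paper's RT-qPCR on day 30, IDO1 was lower and FGF2 higher in treated dogs, with no significant treatment effect on HSD17B7. That RT-qPCR used all available day 30 samples, more than were compared here. In the paper's sequencing FGF2 was slightly lower in treated samples, without significance.

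Immediate-early genes, which respond to stimuli and to tissue handling within minutes, separated samples within groups. Of 15 tested out of 20, KLF6 was the only one with a P under 0.05 (6.23, 7.38 and 4.74 against 12.3, 20.01 and 7.90 CPM). Of all genes with a symbol, 10.2% were higher at that P. The mean log2 level of the 15 genes relative to the control mean was 1.70, -0.63 and -1.07 in controls and 1.42, 1.97 and -0.40 in treated samples. Control 2, treated 2 and treated 4 were high, and controls 3 and 4 and treated 5 were low. Without control 2, 8 genes were higher at a P under 0.05 and the median log2 fold change was 1.604 in place of 0.77, and without treated 5, 6 genes were higher at that P. EGR2, a transcription factor induced within minutes, had 65.3, 0.484 and 0.771 CPM in controls and 24.8, 82.1 and 4.52 CPM in treated samples. The part of these genes in the other results was not tested.

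Oocyte genes were present in some of the samples. Of 13 tested out of 20, 8 had a P under 0.05, all higher in treated samples. Of these 8, 7 were not on the study's day 30 list. Among genes with a symbol 10.2% were higher at that P, and 4.40% of those outside that list. PADI6 passed both thresholds with DESeq2. The groups overlapped in all 13. Summed CPM of the 13 genes were 9.71, 31.03 and 32.5 in controls and 207, 8.56 and 110.5 in treated samples, so treated 2 and treated 5 were high and treated 4 was under all controls. GDF9, a growth factor secreted by oocytes, had 2.23, 4.11 and 5.16 CPM in controls and 31.2, 3.63 and 19.97 CPM in treated samples. ZP3, a protein of the zona pellucida, had 0.312, 1.81 and 1.48 against 34.7, 0.0725 and 21.1 CPM, and PADI6, an enzyme of the oocyte cytoplasm, had 0.208, 0.423 and 0.593 against 13.5, 0.0725 and 5.67 CPM. The germ cell helicase DDX4 had 0, 0.302 and 0 CPM in controls and 6.36, 0 and 3.38 CPM in treated samples. ZP4 and LHX8 also had 0 reads in treated 4, LHX8 in control 4 and NLRP5 in control 2. The count at a P under 0.05 was 0 without treated 2, 1 without control 2, 4 without treated 5, 5 without control 3 and 12 without treated 4. The part of oocyte RNA in the other results was not tested.

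Genes of the Wnt pathway differed in both directions. Of 9 genes of the Wnt list tested out of 24, 3 were higher and 2 lower at a P under 0.05, all on the study's day 30 list. Shares among genes with a symbol were 10.2% higher and 5.94% lower. They are no baseline for genes on that list, which were chosen on these samples. The 2 lower became 0 without control 3 and 1 without treated 4 or treated 5, and the 3 higher became 1 without control 2 and 2 without control 3, treated 2 or treated 5. FRZB, a secreted inhibitor that binds Wnt proteins, had 50.7, 36.5 and 49.6 CPM in controls and 64.5, 112 and 94 CPM in treated samples (log2 fold change 0.98, SE 0.26), and SFRP4 had 10.4, 5.44 and 17.6 against 29.99, 47.3 and 14.8 CPM. SFRP1, of the same family, had 16.4, 27.8 and 10.6 CPM in controls and 9.63, 6.89 and 7.66 CPM in treated samples (log2 fold change -1.18, SE 0.39). CTNNB1, the beta-catenin gene, had 1009, 1507 and 1203 CPM in controls and 998, 666 and 759.7 CPM in treated samples. WIF1, another Wnt inhibitor, had most of its reads in treated 5 (0.156, 0.302 and 0.119 against 1.11, 0.0725 and 6.21 CPM). The TGF-beta, activin and inhibin list had 1 of 12 genes with a P under 0.05, the activin-binding protein FST (2.70, 4.42 and 11.6 against 20.2, 8.63 and 17.6 CPM), which no longer had a P under 0.05 when control 2, control 3, treated 2 or treated 5 was left out. Of 17 cell cycle genes 1 was lower, CCND2, or 3 without treated 2, and 0 of 4 granulosa and theca genes had a P under 0.05.

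Whether the differences on day 30 were particular to that day was tested as the interaction of treatment with day. With edgeR, 0 genes passed both thresholds in the fits with day 20, 5 or 10 (0% each of 13825, 13898 and 13651 genes). An unadjusted P under 0.05 was found for 13.6%, 10.6% and 5.23% of genes. With DESeq2, 560 genes passed for day 20, 120 for day 5 and 25 for day 10. The interactions with day 20 that had the smallest P were those of PTPN20 (4.48 on the log2 scale, SE 0.83), STEAP2 (3.37, SE 0.68) and DYNLT3 (3.66, SE 0.76) above 0, and PGM5 (-2.23, SE 0.43), SMOC2 (-2.59, SE 0.51) and DCHS1 (-3.37, SE 0.70) below 0. For PTPN20 the log2 fold change was -2.44 on day 20 and 2.04 on day 30. For CDH13, lower on day 30, it was 0.45 on day 20 (interaction -2.98, SE 0.66).

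In the order of days 5, 10, 20 and 30, FADS1 had log2 fold changes of 0.32, 0.40, -1.05 and -1.56, and RGS1 of -1.05, -1.22, 1.87 and 1.81. On day 20 the groups overlapped for both genes. With CPM scaled over the 26 samples, FADS1 had 215.2, 416 and 465.6 CPM in day 20 controls 1, 2 and 3. Day 20 treated 2, 3 and 4 had 250.5, 13.4 and 256.4 CPM, so treated 3 was far under the others. For RGS1, day 20 treated 2 lay under all day 20 controls, and treated 3 and treated 4 lay above them. SLC34A2 had opposite signs on day 20 (2.36) and on day 30 (-2.85). Scaled over all 26 samples, FADS1 was at 572 ± 108 CPM (SD, n = 3) in day 30 controls and 179 ± 44.97 CPM (SD, n = 3) in day 30 treated samples. Means in the 6 other groups lay between 173 CPM in day 20 treated and 394 CPM in day 10 treated samples, so the day 30 controls were the highest of the 8 groups. CDH13 was at 77.4 ± 15.4 CPM (SD, n = 3) in day 30 controls, and between 9.81 and 27.9 CPM in all other groups, the day 30 treated group included. EHD4 was likewise highest in day 30 controls, with 187 ± 21.8 CPM (SD, n = 3) in day 30 controls and at most 105 CPM elsewhere. TAGAP was lowest in day 30 controls (8.20 ± 1.602 CPM) and highest in day 30 treated samples (27 ± 1.76 CPM). FADS1, CDH13, EHD4 and TAGAP were named for their difference on day 30, which favors a day 30 group being the extreme.

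Of the 133 genes counted above, the mean of the day 30 controls was the extreme of the 8 groups in 48 and that of the day 30 treated samples in 78, with both in 17 and neither in 24. These counts describe genes chosen for their difference on day 30. For the 11 cholesterol synthesis genes, the mean log2 level relative to day 30 controls was -0.40 ± 0.59 (SD, n = 3) in day 20 controls and -1.62 ± 0.72 (SD, n = 4) in day 5 controls, and -1.38 ± 0.79 (SD, n = 3) in day 30 treated samples. Endothelial markers were at -0.66 ± 0.23 (SD, n = 3) in day 20 controls, at -0.99 ± 0.38 (SD, n = 4) in day 5 controls and at -1.16 ± 0.48 (SD, n = 3) in day 30 treated samples. Ribosomal protein genes were at -0.26 ± 0.51 (SD, n = 3) in day 20 controls and 1.07 ± 0.24 (SD, n = 3) in day 10 controls, against 0.60 ± 0.11 (SD, n = 3) in day 30 treated samples. Day 20 treated samples were at -1.89 ± 1.98 (SD, n = 3) for cholesterol synthesis genes, with the lowest sample at -4.17. They were at -1.19 ± 0.90 (SD, n = 3) for endothelial markers and at 1.20 ± 0.29 (SD, n = 3) for ribosomal protein genes.

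**Figure D5:**
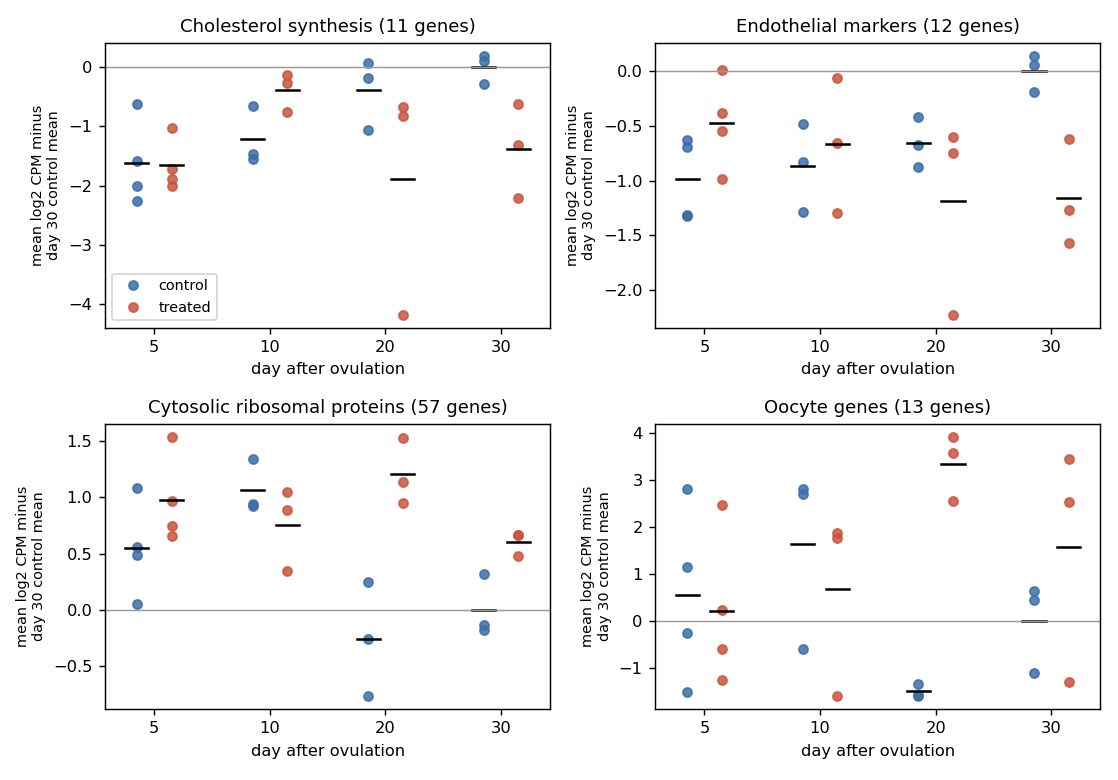
Mean log2 CPM of 4 gene lists relative to the mean of the day 30 controls (y axis) by day after ovulation (x axis), 1 point per sample of the series, blue for control and red for treated, with the group mean as a black line. On day 30 the treated samples lie under the controls for cholesterol synthesis and endothelial markers and above them for ribosomal protein genes, and they overlap for oocyte genes.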

How the data were processed

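The authors deposited raw read counts per Ensembl gene for each CL sample, and per the labels reads were aligned to CanFam3.1 with STAR and counted with featureCounts (versions not given in the sources used here). The library kit does not mark strand, so overlapping and antisense genes cannot be told apart, and reads of near-identical copies may be split. Depth was 14851322 to 18473283 counted reads per day 30 sample. Each sample was taken as a replicate. The labels do not say that each came from another dog, but the paper's methods count the sequenced samples as animals per group. P-values thus measure the spread between the dogs of a group that the study kept.

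Day 30 treated and control samples were compared with edgeR 4.0.16 (R 4.3.3) by its quasi-likelihood test on the 6 samples, with TMM factors, on the 13196 of 19856 genes that averaged 10 reads or more in a group. DEGs needed a P under 0.01 and a Benjamini-Hochberg FDR under 0.1. Each SE is the absolute log2 fold change divided by the root of its F statistic. Log2 CPM used a prior count of 2. Interactions with days 5, 10 and 20 were fitted with edgeR on the samples of both days. The scripts were tested on simulated counts of 13196 genes, in which 100 changed 2-fold and 100 changed 4-fold. Alternatives were DESeq2 1.42, limma 3.58.1 (voom), RLE factors, other filters, wider fits, a replicate block and each sample left out. Deviations of same-numbered samples from their group means correlated with a mean r of -0.08 over 2 pairs, so the numbers were not taken as pairing samples. Only replicates 2 and 4 occur in both groups, so the fit with the replicate block compares treated with control samples by these alone.

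Symbols came from the identifiers of the study's DEG lists (4347 of 19856 genes), and the files pair none. The members and gene lists were chosen with earlier results of these data known. Genes were named if among the 10 with the smallest P per direction, or the 5 with the largest fold change (P under 0.01, no overlap between groups, a mean of at least 1 CPM in a group), the 4 members of a list with the smallest P, the candidates measured by RT-qPCR, or the 3 per direction with the smallest interaction P against day 20. Outside this rule, ACLY, CDH5, CTNNB1, CYP19A1, HIF1A, IL1R1, KDR, LHCGR, PRLR, PTGS2, the collagens and the carnitine palmitoyltransferases were chosen after their values were seen. Promoter sequences were not analysed here, and the values of some list members are not reported here.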

Additional observations from a re-analysis of the deposited data

How the results depend on the processing

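The count of 0 DEGs with edgeR was also found with voom, RLE factors, both other filters, both wider fits, the replicate block, an FDR under 0.05 alone and without each sample in turn, with a smallest FDR of 0.117 or more (0.117 without control 2), while DESeq2 gave 116. The count of 133 genes past a P of 0.01 and a log2 fold change of 1 became 316 with DESeq2, 203 with no filter, 79 in the fit of 12 samples and 85 with the replicate block, and ranged from 73 to 417 without single samples. RLE factors gave 136, 62 higher and 74 lower, against 88 and 45 with TMM. The 1074 genes with a P under 0.05 became 546 in the fit of all 26 samples, 518 in that of 12 samples and 414 with the replicate block, and ranged from 552 without control 3 to 2494 without control 2. These ranges come from fewer samples per fit, and which feature of control 2 moves them was not tested. The calls of DESeq2 were 1378 without control 2, 405 without treated 2, 99 without control 4, 66 without treated 4, 42 without control 3 and 32 without treated 5, an alternative chosen after seeing the data. For the interactions, DESeq2 gave 560 calls against day 20, 120 against day 5 and 25 against day 10. EdgeR gave 0 under all other alternatives but 1 against day 10 without treated 2 (range 0 to 1).

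The replicate block compares treated with control samples by replicates 2 and 4 alone, and the numbers were not taken as pairing samples. With it, genes with a P under 0.05 numbered 1 in place of 38 for ribosomal proteins and 1 in place of 7 higher translation factors. They numbered 2 in place of 5 for fatty acids, 1 in place of 3 lower for angiogenic factors and 0 in place of 3 for fibroblast and matrix genes. Of Wnt genes, 0 were lower and 1 higher. The log2 fold change with the block was 0.27 for PTGS2 and -0.25 for CYP19A1, opposite in sign to the values above. Without single samples, signs also turned for PTGS2 (-0.74 without treated 2 to 0.10 without treated 5), NFKBIA (-0.0068 without treated 4 to 1.28 without treated 5) and CYP19A1 (-0.22 without treated 5 to 0.36 without treated 2). So did the medians of prostaglandin receptors (-0.14 without control 2 to 0.58), luteotropic and steroid receptors (-0.079 without control 2 to 0.12, with -0.06 without treated 2 and -0.03 without treated 4), granulocyte markers (-1.29 to 0.28 without control 4), inflammatory genes (-0.060 without treated 4 to 1.08), granulosa and theca genes (-0.43 to 0.29 without control 2) and epithelium markers (-0.58 without treated 4). By less than the spread between samples, signs turned too for mural (-0.13 without treated 4), macrophage (-0.19 without control 3, -0.26 with the block), fibroblast (0.07 without treated 5, 0.10 with the block), cell cycle (0.07 without treated 5), TGF-beta (0.08 without treated 4) and candidate genes (0.09 without control 4). The cause of these turns was not tested. Of the other values of named genes under the alternatives, 873 kept direction and side of the threshold and 43 passed it where edgeR did not. At this depth, genes under about 1 CPM rest on few reads.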

Other observations

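The genes with the smallest interaction P between days 30 and 20 were by that choice ones with unlike fold changes on these days. STEAP2, a metalloreductase, had 8.88, 14.5 and 14.8 CPM in day 30 controls and 10.7, 12.98 and 27.5 CPM in day 30 treated samples, a log2 fold change of 0.43, against -2.94 on day 20. DYNLT3, a dynein light chain, had 83.2, 155 and 140.2 CPM against 225, 289.8 and 469.8 CPM on day 30, with log2 fold changes of 1.38 on day 30 and -2.25 on day 20. SMOC2, a matricellular protein, had 166, 106 and 185 CPM in controls and 156, 165 and 147 CPM in treated samples on day 30, and its log2 fold change was 0.04, against 2.59 on day 20. PGM5, a phosphoglucomutase-like protein of adherens junctions, had log2 fold changes of -0.08 on day 30 and 2.12 on day 20, and the protocadherin DCHS1 of -1.25 and 2.09. None of these passed edgeR's FDR threshold for the interaction.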
